A study of Rattus norvegicus with 12 samples.

Results

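The response of the uterus to infused estradiol (17β-estradiol, E2) was measured in rats that ate soy protein isolate (SPI). The comparison used all 3 SPI-E2 libraries and all 3 SPI libraries, which are 6 of the 12 libraries sequenced. SPI rats were ovariectomized female Sprague-Dawley rats on a soy protein isolate diet and were infused with vehicle. SPI-E2 rats had the same operation and diet and were infused under the skin with 5 μg/kg/d of E2. The study's methods place ovariectomy on postnatal day 50 and the start of the diets on postnatal day 30, and the labels give postnatal day 65 as the age, whereas another passage describes a shorter feeding period, so the time on soy is uncertain. The CAS and CAS-E2 groups, which ate casein, a milk protein, in place of soy, served to set the E2 effect on soy beside that on casein. Their libraries were also in the same fit, so they helped to set the spread behind every SE and p-value below. Each library was a pool of RNA from 2 uteri, so 6 uteri stand behind each group, and every p-value measures the spread between pools.

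Levels are FPKM, the fragments mapped to a gene scaled to the length of its transcripts and to the mapped fragments of the library, and so they can be compared between genes. Of 16493 genes in the files, 9683 (58.7%) reached an FPKM of 1 in 3 or more of the 6 libraries and were tested with limma on log2(FPKM + 1). Genes are called higher or lower below where the adjusted p (Benjamini-Hochberg) was under 0.05 and the groups differed by 2-fold or more on that scale. All log2 differences below are SPI-E2 minus SPI on the log2(FPKM + 1) scale, given with the standard error (SE), and that scale understates the change of genes with low levels.

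Estradiol acts in the uterus mainly through estrogen receptor α, a transcription factor encoded by Esr1 that binds DNA as a dimer and is present in epithelium, stroma and muscle. After ovariectomy the uterus regresses, and E2 brings back water and ion transport, protein secretion by the epithelium, epithelial growth and an influx of white blood cells. Soy protein isolate carries isoflavones such as genistein, plant compounds that bind estrogen receptors.

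The labelled tissue was checked first. Genes that mark uterus were present in every pool, with Esr1 at 29.0, 32.5 and 24.5 FPKM in SPI and 31.4, 25.5 and 15 in SPI-E2, and Hoxa10, a patterning gene of the female tract, at 10.5, 13.8 and 16.9 in SPI and 21.6, 10.7 and 6.31 in SPI-E2. The smooth muscle gene Myh11 stood at 340, 412 and 408 FPKM in SPI and 347, 190 and 261 in SPI-E2. The files imply 7594303 to 9672864 mapped reads per SPI pool and 6876617 to 9722616 per SPI-E2 pool. The 3 libraries of a group shared the flow cell lanes, so an effect of lane cannot be told apart from that of group.

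The pool SPI-E2 1 stood apart from SPI-E2 2 and SPI-E2 3. On the first principal component of the 6 libraries, which held 72.7% of the variance, the SPI pools lay at -35.27, -43 and -33.97 and the SPI-E2 pools at 3.88, 56.46 and 51.88. Over the 1666 genes that differed when SPI-E2 1 was left out, this pool lay a median of 0.41 of the way from the SPI mean to the mean of SPI-E2 2 and SPI-E2 3 on the log2(FPKM + 1) scale, with quartiles of 0.27 and 0.52. Its position differed by direction, with a median of 0.44 over the 1222 higher genes and 0.21 over the 444 lower genes. It lay within the range of the SPI pools for 79 of the 1222 higher genes and for 158 of the 444 lower genes. When SPI-E2 2 or SPI-E2 3 was left out instead, the omitted pool lay at medians of 1.35 over 669 genes and 1.27 over 765 genes. In the study's read summary, SPI-E2 2 and SPI-E2 3 had lower alignment rates and more over-represented sequences than SPI-E2 1 and the SPI pools. Some CAS and CAS-E2 pools had such values too. Whether library quality had a part in the position of SPI-E2 1 was not tested. No source says whether a rat of SPI-E2 1 differed in its infusion, and counts over all genes are given with and without this pool. List counts are given without it where the number higher or lower changed by 1.5 times or more.

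**Figure D1:**
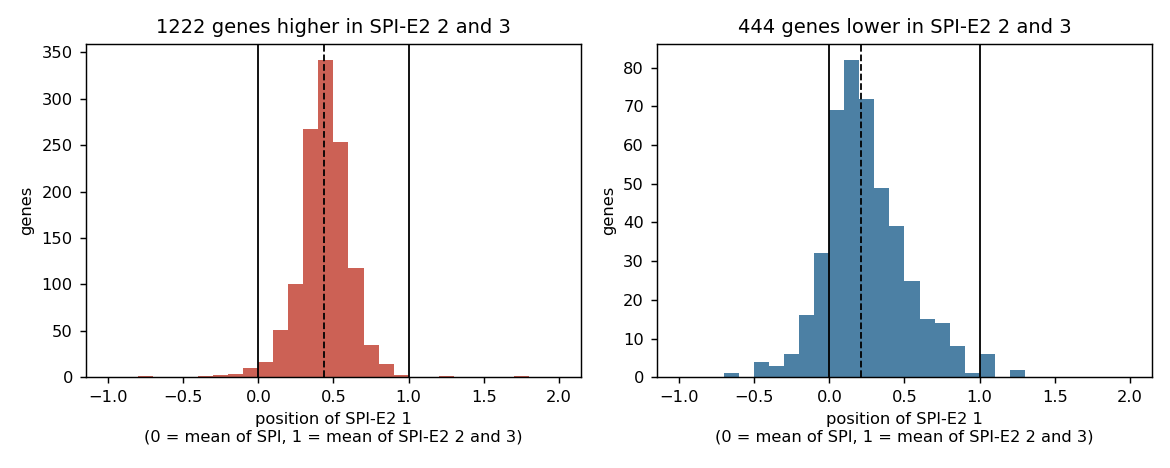
The horizontal axis is the position of SPI-E2 1 between the SPI mean (0) and the mean of SPI-E2 2 and SPI-E2 3 (1) on the log2(FPKM + 1) scale, and the vertical axis is the number of genes, with solid lines at 0 and 1 and a dashed line at the median. The 1222 higher genes centre on 0.44, while the 444 lower genes centre on 0.21, closer to the untreated pools.

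Among pools of the SPI group, SPI 1 also stood apart, in genes of the liver. Albumin (Alb) was at 1120 FPKM in SPI 1, at 8.64 and 19.8 in SPI 2 and SPI 3, and between 6.23 and 74.1 in the SPI-E2 pools. Adipocyte markers were uneven as well. Their summed FPKM was 1780, 1250 and 245 in SPI and 405, 421 and 517 in SPI-E2, so SPI 3 was the lowest pool and SPI 1 and SPI 2 the highest.

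E2 raised more genes than it lowered in uteri of soy-fed rats. Secreted proteins of the epithelium, keratins, ion transporters, and genes of protein folding and sugar metabolism were among those that rose, and stromal, glutathione transferase, metallothionein and Wnt-inhibitor genes were among those that fell. In all, 828 genes were higher in SPI-E2, which is 8.55% of those tested, and 188 were lower, which is 1.94%. List counts below are to be read beside these shares. When SPI-E2 1 was left out, 1222 genes (12.6%) rose and 444 (4.59%) fell, among them all of the 828 and 186 of the 188. With no sample left out, the 3 SPI-E2 pools all lay above the 3 SPI pools for 2985 genes (30.8%) and all below for 1061 (11%). This non-overlap held for 811 of the 828 higher genes and 152 of the 188 lower genes.

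The rises were also the larger changes. A difference of at least 3 on the log2 scale was reached by 88 higher genes and by 0 lower genes. The median difference over all tested genes was 0.12, and it was 0.00 after median-ratio scaling and -0.06 after quantile normalization. The share of higher genes among those called, 81.5%, was 71.3% (681 higher and 274 lower) with median-ratio scaling and 64.1% (595 higher and 333 lower) with quantile normalization, so the balance of directions depended in part on the scaling.

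**Figure D2:**
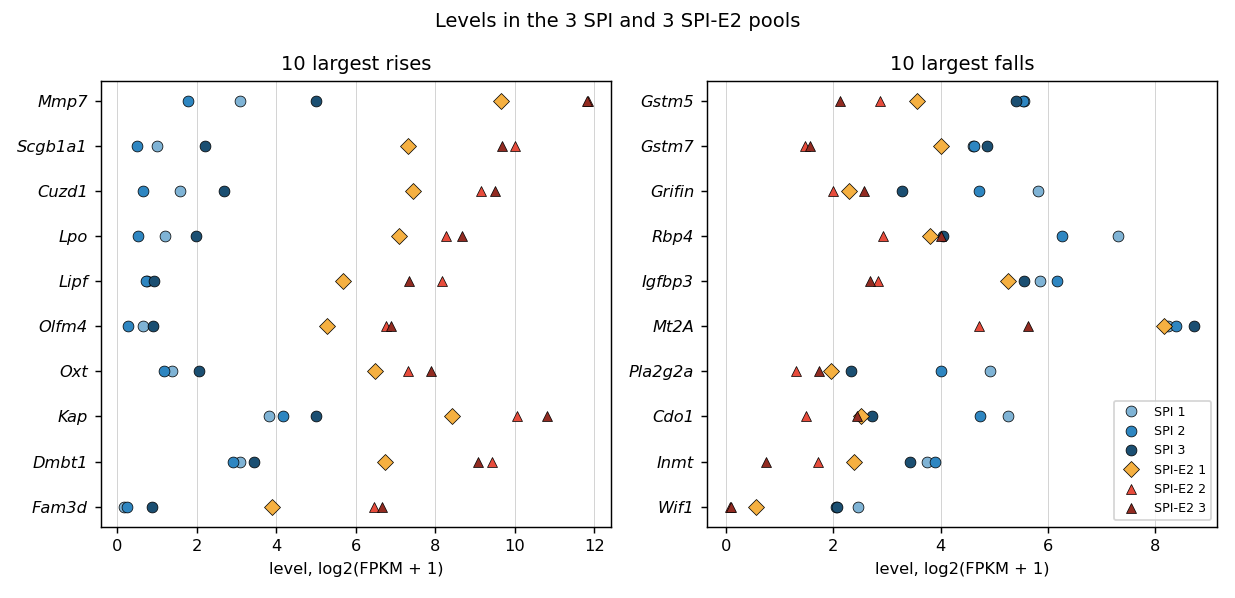
Each point is the level of a gene in 1 pool as log2(FPKM + 1), for the 10 largest rises (left) and the 10 largest falls (right) whose groups do not overlap, with circles for SPI, a diamond for SPI-E2 1 and triangles for SPI-E2 2 and SPI-E2 3. For the rises SPI-E2 1 lies between the SPI pools and the other SPI-E2 pools, and for several falls it lies next to an SPI pool, as for Mt2A with 287 FPKM against 299 in SPI 1.

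The genes with the largest rises encode secreted proteins. Mmp7 (rn4 chr8:4526018-4533730), a matrix metalloproteinase of epithelia, was at 7.53, 2.43 and 30.7 FPKM in SPI and at 796, 3670 and 3600 in SPI-E2. Scgb1a1 (chr1:211758103-211761651), the secretoglobin known from airway club cells, was at 1.01, 0.403 and 3.57 in SPI and at 159, 1030 and 811 in SPI-E2. Both groups were far apart for these genes, with SPI-E2 1 the lowest of the treated pools. The log2 difference was 7.81 (SE 0.76) for Mmp7 and 7.77 (SE 0.61) for Scgb1a1, with adjusted p of 9e-05 and 1.9e-05 from limma.

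Cuzd1 (chr1:190887527-190900654), a protein of secretory granules known from pancreas and uterus, was at 1.98, 0.561 and 5.42 FPKM in SPI and at 173, 568 and 717 in SPI-E2. Lpo (chr10:76099137-76118724), the lactoperoxidase of exocrine secretions, was at 1.30, 0.424 and 2.92 in SPI and at 134, 306 and 405 in SPI-E2. Lipf (chr1:237838238-237856585), the gastric lipase, was at 0.682, 0.635 and 0.893 in SPI and at 50.1, 287 and 161 in SPI-E2. For each of these genes the lowest treated pool was more than 10 times the highest untreated pool. Their log2 differences were 7.06 (SE 0.57), 6.77 (SE 0.42) and 6.27 (SE 0.89).

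Oxt (chr3:118194219-118195058), the precursor of oxytocin, the peptide that contracts the uterus, was at 1.59, 1.27 and 3.13 FPKM in SPI and at 87.7, 157 and 235 in SPI-E2. Its neighbour Avp (chr3:118205007-118206985), the vasopressin precursor, chosen after its values were seen, was at 0.00, 0.00 and 0.27 in SPI and at 7.05, 22.2 and 21.9 in SPI-E2. Both genes were higher in every treated pool than in every untreated pool. The log2 difference was 5.68 (SE 0.40) for Oxt, with an adjusted p of 1.2e-05 from limma, and 3.90 (SE 0.40) for Avp. Avp reached the FPKM of 1 needed for a test in SPI-E2 pools alone, so the filter kept it only through those pools. Oxtr, the oxytocin receptor, was at 13, 10.8 and 3.43 in SPI and at 11.9, 19.4 and 11.8 in SPI-E2, groups that overlap. Its log2 difference of 0.73 (SE 0.54) had an adjusted p of 0.32 from limma.

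Olfm4, Kap, Dmbt1 and Fam3d complete the 10 largest rises. Olfm4, a secreted glycoprotein of intestinal crypts, went from 0.208 to 0.859 FPKM in SPI to 37.7 to 117 in SPI-E2. Kap, the androgen-regulated kidney protein, was at 13.1, 17.1 and 31.1 in SPI and at 342, 1060 and 1800 in SPI-E2. Dmbt1, a scavenger receptor protein of mucosal defense, was at 7.42, 6.53 and 9.88 in SPI and at 105, 683 and 534 in SPI-E2. The groups did not overlap for any of these, and the log2 differences were 5.70 for Olfm4, 5.43 for Kap, 5.26 for Dmbt1 and 5.24 for Fam3d, a cytokine-like secreted protein.

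The promoter sequences of the largest rises were read because estrogen receptor α binds the core motif GGTCA, which reads TGACC on the other strand. RefSeq (GRCr8) supplied a promoter of 250 bases before to 50 bases after the gene start for 8 of the 10 genes, and 5 of the 8 held the core on either strand, where 40.2% of the 27457 promoters in that table held it. The 2 forms cannot overlap each other. The inverted repeat of the core with 3 bases between its arms, the full estrogen response element, was in none of the 8 and in 7 promoters (0.0255%) of the table. The promoters with 3 or more cores are shown, with cores in capitals: Oxt at chr3:138235504-138235803 on the plus strand, Cuzd1 at chr1:195532684-195532983 on the minus strand and Olfm4 at chr15:61815981-61816280 on the plus strand.
Oxt: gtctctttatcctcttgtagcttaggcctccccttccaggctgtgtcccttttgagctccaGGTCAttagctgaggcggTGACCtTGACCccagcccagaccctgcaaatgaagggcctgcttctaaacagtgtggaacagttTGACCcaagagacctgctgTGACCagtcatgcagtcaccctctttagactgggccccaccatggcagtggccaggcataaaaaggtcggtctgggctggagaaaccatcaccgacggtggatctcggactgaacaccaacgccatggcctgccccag
Cuzd1: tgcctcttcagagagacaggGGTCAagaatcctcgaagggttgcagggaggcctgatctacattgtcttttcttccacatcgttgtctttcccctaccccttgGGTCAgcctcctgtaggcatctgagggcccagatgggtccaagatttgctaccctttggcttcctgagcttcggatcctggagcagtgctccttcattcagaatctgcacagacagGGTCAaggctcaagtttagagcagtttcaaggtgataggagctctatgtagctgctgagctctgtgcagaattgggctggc
Olfm4: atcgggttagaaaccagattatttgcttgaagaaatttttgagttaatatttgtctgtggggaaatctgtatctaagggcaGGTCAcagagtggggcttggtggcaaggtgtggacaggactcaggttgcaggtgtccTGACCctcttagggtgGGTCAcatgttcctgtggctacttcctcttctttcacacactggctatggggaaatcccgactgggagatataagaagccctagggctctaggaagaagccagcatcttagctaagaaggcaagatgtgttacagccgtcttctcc

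Counted from the gene start, the cores began at positions -189, -171, -165, -107 and -88 in Oxt, at -230, -147 and -31 in Cuzd1 and at -169, -112 and -96 in Olfm4. A match to these letters is a description of the sequence and says nothing of binding in these uteri. A promoter was in the table for 653 of the 828 higher genes (78.9%) and 138 of the 188 lower genes (73.4%). Among all tested genes, 7911 of 9683 (81.7%) had one. The share of these promoters that held the core is not given here. The count among the largest rises was set beside all promoters of the table, not beside those of tested genes. Whether that count differs from the share among tested genes was not tested.

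Many genes for secreted defense proteins and many secretory genes best known from other organs were higher. Of 27 defense genes in the files 18 were tested, and 14 were higher and 1 was lower, with a median log2 difference of 2.95. Reg3g, a bactericidal lectin of the gut, was at 0.231, 0.00 and 0.544 FPKM in SPI and at 8.99, 27.2 and 35.7 in SPI-E2. Lcn2, an iron-sequestering lipocalin of uterine fluid, was at 3.92, 2.66 and 6.31 in SPI and at 76.7, 207 and 251 in SPI-E2. The groups did not overlap for either gene. The exception was Clu, the chaperone clusterin, at 126, 122 and 116 in SPI and 85.8, 28.3 and 21.4 in SPI-E2, which fell by 1.66 on the log2 scale (SE 0.40). Of the 24 secretory genes of other organs 10 were tested and 8 were higher, with a median log2 difference of 5.04. Among them, Lipf, Olfm4, Rbp2 and Pip reached the FPKM of 1 needed for a test in SPI-E2 pools alone, and so did Reg3g, Reg3b, Clca1, Padi1, Noxo1 and Gp2 of the defense list, so both counts and both medians were set in part by that filter. Both lists were also written with earlier results of these data known. Oxt, Lipf, Kap, Cuzd1 and Olfm4 of the organ list are among the 10 largest rises. So are Mmp7, Scgb1a1, Lpo and Dmbt1 of the defense list. The counts and medians of both lists may therefore restate how the lists were chosen. Rbp2, the intestinal retinol-binding protein, was listed at 0 in every SPI pool and was at 5.03, 16.7 and 23.9 in SPI-E2. Fam3d and Avp, named above, also passed the filter through SPI-E2 pools alone. So did Cftr, Dsc2, Cd86, Rrm2, Btc, Tgfa and Srxn1 among genes named below. Wif1, Hoxa9 and Cma1 passed it through SPI pools alone. The counts and medians of the lists that hold such genes carry the same limit, and so may those of other lists.

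Genes already known to respond to estrogen in the rodent uterus mostly rose. Of 20 tested, 11 were higher and 1 was lower, with a median log2 difference of 1.09. S100g, the calcium-binding protein calbindin-D9k, was at 4.55, 6.22 and 18.9 FPKM in SPI and at 116, 482 and 513 in SPI-E2. Inhbb, which encodes an activin subunit, was at 3.33, 4.30 and 3.67 in SPI and at 15.1, 36.2 and 31.0 in SPI-E2. Their log2 differences were 5.05 (SE 0.63) and 2.49 (SE 0.26), with no overlap of groups. Fst, which encodes follistatin, the binding protein of activin, was at 4.27, 1.77 and 1.99 in SPI and at 1.46, 0.494 and 0.175 in SPI-E2, and fell by 1.11 (SE 0.33). C3, placed on unassigned sequence (Un), was listed at 0 in all 6 pools and in the CAS and CAS-E2 means. Its response could therefore not be judged.

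None of the 13 tested genes for steroid receptors and their cofactors passed both thresholds. Over all genes tested 8.55% were higher and 1.94% lower, shares at which a list this short holds few called genes or none. Esr1 had a log2 difference of -0.30 (SE 0.25), with an adjusted p of 0.39 from limma. Pgr, the progesterone receptor and a classic estrogen target, stood at 15.9, 17.7 and 15.4 FPKM in SPI and 22.2, 26.8 and 18.6 in SPI-E2. All 3 treated pools lay above the untreated ones, but the log2 difference of 0.43 (SE 0.29) had an adjusted p of 0.28. Esr2 was below the level needed for a test. None of the 15 tested uterus identity genes passed either, with a median log2 difference of -0.25. Without SPI-E2 1, 1 gene of each of these lists was lower, Nr3c1 and Hoxa9, both named for that reason after their values were seen.

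Most of the epithelial structure genes tested were higher. Of 31 tested, 22 were higher and 0 were lower, with a median log2 difference of 1.67, and without SPI-E2 1 the counts were 25 and 1. Krt8, a keratin of simple epithelia, was at 33.8, 24.4 and 30.7 FPKM in SPI and at 138, 523 and 500 in SPI-E2. Elf3, an epithelial transcription factor, was at 5.72, 5.10 and 6.64 in SPI and at 48.2, 213 and 190 in SPI-E2. SPI-E2 1 lay between the untreated pools and the others for both. Prom1, the apical membrane protein prominin, and Dsc2, a desmosomal cadherin, had log2 differences of 4.25 (SE 0.36) and 3.63 (SE 0.36). Cdh1, which encodes E-cadherin and marks epithelium as a whole, differed by a smaller 1.56 (SE 0.26), from 11.5, 11.2 and 11.6 FPKM in SPI to 20.1, 48.0 and 46.6 in SPI-E2. In bulk RNA, more epithelial cells and more RNA per epithelial cell cannot be told apart, and the same holds for every other cell type below.

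**Figure D3:**
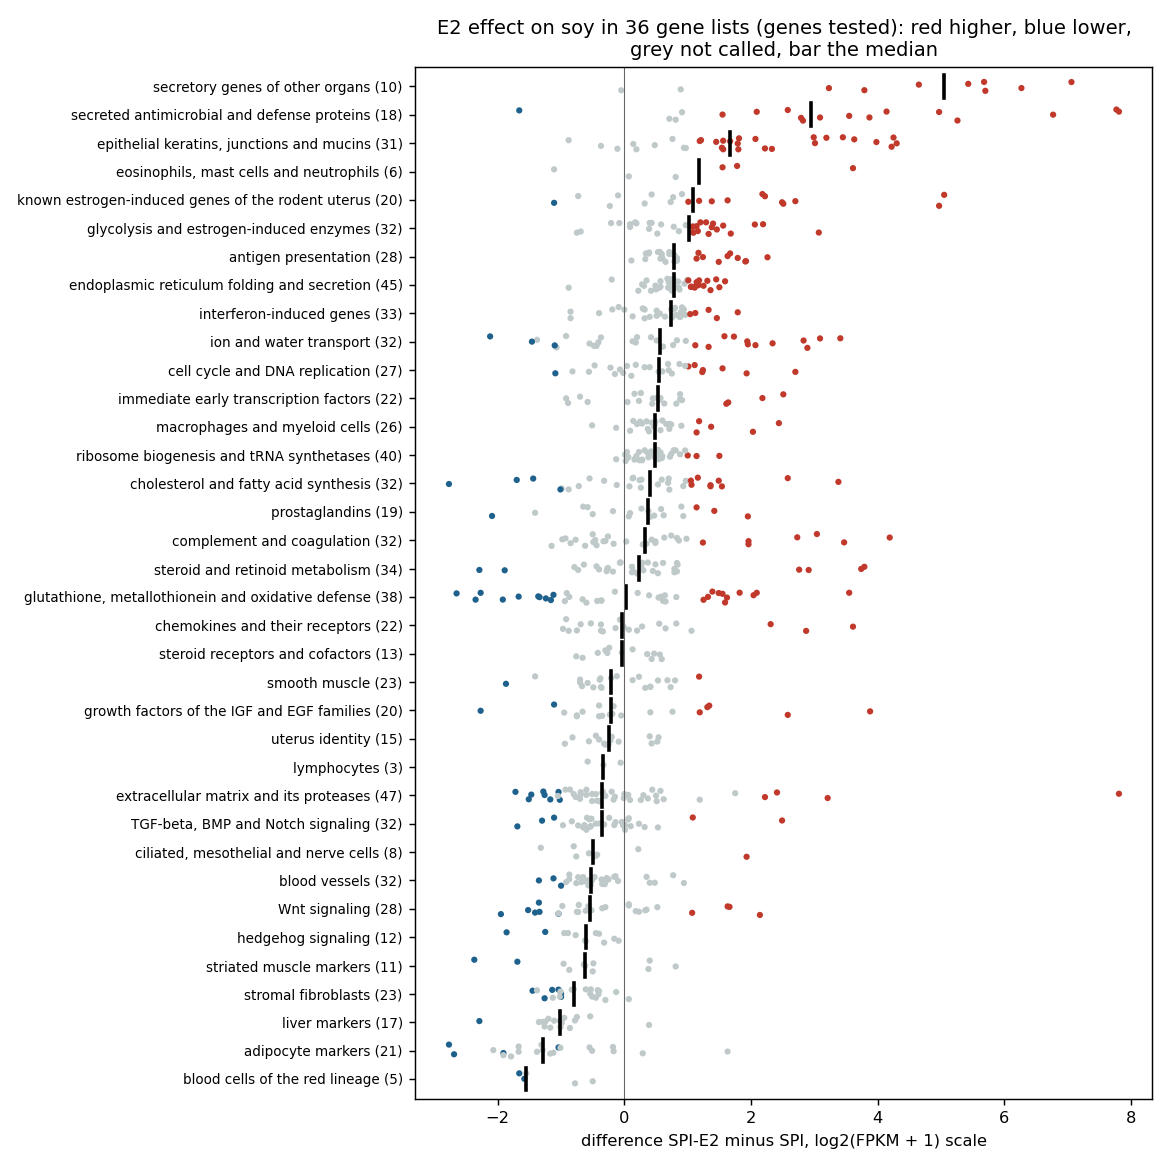
Each point is the log2 difference SPI-E2 minus SPI of a tested gene on the log2(FPKM + 1) scale, with a row for each gene list, the number tested in brackets, higher genes in red, lower genes in blue, genes not called in grey and the list's median as a bar. The lists run from secretory genes of other organs, with a median of 5.04, to red blood cell genes, with a median of -1.55, and all genes tested had a median of 0.12. The lists were written with earlier results of these data known.

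Ion and water transport changed in both directions. Of 32 genes tested, 12 were higher and 3 were lower. Cftr, the chloride channel of secretory epithelia, was at 0.108, 0.155 and 0.255 FPKM in SPI and at 5.23, 16.1 and 16.9 in SPI-E2, a log2 difference of 3.41 (SE 0.31). Slc34a2, a phosphate transporter, and Trpv6, a calcium channel, differed by 3.09 (SE 0.32) and 1.95 (SE 0.26). On the other side, Fxyd4, a regulator of the sodium pump, was at 12.4, 11.3 and 12.7 in SPI and 8.15, 2.48 and 2.38 in SPI-E2. Fxyd4 had no overlap of groups, and SPI-E2 1 was the treated pool nearest to SPI.

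Some genes of protein export and of sugar use were also higher. Of 45 tested genes for folding and secretion in the endoplasmic reticulum, 16 were higher and 0 lower, and 23 were higher without SPI-E2 1. Creb3l1, a membrane-bound transcription factor of secretory cells, was at 7.72, 6.89 and 6.95 FPKM in SPI and at 14.5, 28.1 and 32.2 in SPI-E2. Hspa5, the chaperone BiP, was at 38.1, 31.8 and 43.7 in SPI and at 68.1, 94.3 and 86.9 in SPI-E2. The groups did not overlap for either gene. Their log2 differences were 1.59 (SE 0.25) and 1.11 (SE 0.18), and 38 of the 45 had every treated pool above every untreated pool, against 30.8% of all genes tested.

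Of 32 genes for glycolysis and other enzymes that estrogen induces, 16 were higher and 0 lower, with a median log2 difference of 1.02. Ldha, which encodes a lactate dehydrogenase subunit, was at 72.5, 52.1 and 53.6 FPKM in SPI and at 142, 379 and 374 in SPI-E2. Slc2a1, the glucose transporter GLUT1, was at 5.90, 5.90 and 5.41 in SPI and at 12.6, 40.4 and 38.0 in SPI-E2. Both were higher in every treated pool, by 2.19 (SE 0.33) and 2.06 (SE 0.33).

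Genes of sterol and fatty acid synthesis changed in both directions. Of 32 genes tested, 9 were higher and 4 were lower, or 11 and 6 without SPI-E2 1. The higher ones included Idi1, an enzyme of sterol synthesis, at 3.90, 4.18 and 3.90 FPKM in SPI and at 15.6, 30.2 and 50.5 in SPI-E2, with a log2 difference of 2.58 (SE 0.31). The lower ones were Scd1, Me1, Elovl6 and Fads1, all of fatty acid synthesis. Scd1 was at 364, 326 and 24.2 in SPI and at 48.1, 8.76 and 18.6 in SPI-E2, and Me1 at 27.4, 26.7 and 4.75 against 4.56, 4.12 and 3.59. In both genes SPI 1 and SPI 2 were high and SPI 3 low, as for the summed adipocyte markers, whose part in these falls was not tested.

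Immune genes rose in part. Of 28 antigen presentation genes tested, 10 were higher and 0 lower, with a median log2 difference of 0.78. Psmb10, an immunoproteasome subunit, stood at 8.60, 5.01 and 4.02 FPKM in SPI and 14.4, 33.2 and 28.7 in SPI-E2. RT1-A1, a class I histocompatibility chain, differed by 2.26 (SE 0.38), but RT1 genes are near-identical copies among which short reads of 36 bases may be divided. Of 33 interferon-induced genes 5 were higher and 0 lower, and this became 16 and 0 when SPI-E2 1 was left out. Isg15, a ubiquitin-like protein, was at 19.2, 10.5 and 11.9 in SPI and 29.6, 73.2 and 53.7 in SPI-E2, with a log2 difference of 1.79 (SE 0.37).

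Of 26 genes of macrophages and other myeloid cells, 5 were higher and 0 lower. Cd86, a costimulatory protein of antigen-presenting cells, was at 0.185, 0.148 and 0.726 FPKM in SPI and at 2.84, 5.06 and 5.93 in SPI-E2, and Cd68 differed by 1.37 (SE 0.31). Csf1r, the receptor that macrophages need to live, was at 6.67, 6.76 and 5.62 in SPI and 6.91, 7.03 and 3.70 in SPI-E2, with a log2 difference of -0.13 (SE 0.26). Ccl11, the eosinophil attractant eotaxin, was at 3.57, 0.813 and 1.87 in SPI and at 7.13, 122 and 41.8 in SPI-E2. It was 1 of 3 chemokine genes that were higher among 22 tested, with 0 lower, where 8.55% of all genes tested were higher. Without SPI-E2 1, 4 chemokine genes were higher and 1 lower. Of 3 tested lymphocyte genes 0 passed.

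Of 28 genes listed for eosinophils, mast cells and neutrophils 6 were tested, and 3 were higher. They were Ccl11, Kit, the receptor for stem cell factor, and S100a9, a calcium-binding protein of neutrophils. Ccl11 is also in the chemokine list and encodes an attractant of eosinophils, so its rise does not count these cells. The call of S100a9 was lost in 11 of the 16 alternatives that held the gene. Prg2 and Epx, which encode granule proteins of eosinophils, were too low to test. The next 3 genes, mast cell proteases chosen after their values were seen, lay lower in SPI-E2, whereas Kit of the same list was higher. Their levels were low, and they do not stand for mast cells or for the list. Cma1 was at 3.17, 1.69 and 1.24 FPKM in SPI and at 0.541, 0.619 and 0.00 in SPI-E2, with an adjusted p of 0.059 from limma. Cpa3, too low to test, was at 0.962, 0.768 and 0.588 against 0.219, 0.251 and 0.236, and Tpsb2, also too low, at 1.19, 1.07 and 0.467 against 0.152, 0.465 and 0.00.

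Of 32 genes for complement and coagulation, 7 were higher and 0 lower, which became 10 and 1 when SPI-E2 1 was left out. Cd55, which protects cells from complement, was at 5.0, 4.95 and 4.11 FPKM in SPI and at 70.8, 152 and 99.9 in SPI-E2. Complement factor B (Cfb) was at 30.3, 20.6 and 12.2 in SPI and at 89.6, 367 and 358 in SPI-E2. These genes did not overlap between groups, with log2 differences of 4.19 (SE 0.31) and 3.47 (SE 0.49). The list's median was 0.32, and it was -0.13 with quantile normalization.

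Cell cycle genes changed in part. Of 27 tested, 7 were higher and 1 was lower, or 9 and 2 without SPI-E2 1. The cyclin-dependent kinase inhibitor Cdkn1a, which encodes p21, rose the most of these, from 2.45, 1.89 and 2.61 FPKM in SPI to 11.1, 30.8 and 24.8 in SPI-E2, while Cdkn1c, which encodes the inhibitor p57, was at 9.51, 13 and 8.31 in SPI and 8.82, 3.07 and 2.54 in SPI-E2. The groups overlap for Cdkn1c, which differed by -1.09 (SE 0.32). The replication enzyme Rrm2 and the mitotic kinase Cdk1 differed by 1.24 (SE 0.19) and 1.93 (SE 0.40), from levels of at most 1.68 FPKM in SPI. Of 22 immediate early genes 4 were higher and 0 lower, or 7 and 3 without SPI-E2 1, with Fos at 3.89, 5.30 and 4.85 FPKM in SPI and 16.3, 39.3 and 46.8 in SPI-E2.

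Of 40 genes for ribosome biogenesis and tRNA synthetases 3 passed both thresholds, Tars, Wars and Nars, all higher, where 8.55% of all genes tested were higher. Every treated pool was above every untreated pool for 27 of the 40, against 30.8% of all genes. The nucleolar genes Fbl and Nop56 had groups apart and log2 differences of 0.56 (SE 0.18) and 0.48 (SE 0.12), with adjusted p of 0.036 and 0.012 from limma, under the fold threshold. The nucleolar genes Npm1 and Ncl had log2 differences of 0.01 (SE 0.18) and -0.13 (SE 0.25).

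Growth factor genes differed among themselves. Of 20 tested genes of the IGF and EGF families, 5 were higher and 2 lower, or 5 and 3 without SPI-E2 1. Igfbp2, an IGF-binding protein, was at 3.99, 2.89 and 7.21 FPKM in SPI and at 34.7, 110 and 127 in SPI-E2, while Igfbp3 (rn4 chr14:87959153-87967171), which carries most IGF in blood, was at 56.4, 71.1 and 45.8 in SPI and at 37.0, 6.12 and 5.42 in SPI-E2. The groups did not overlap for either, and the log2 differences were 3.88 (SE 0.45) and -2.27 (SE 0.52). The EGF-family ligands Btc and Tgfa were higher by 2.58 (SE 0.38) and 1.19 (SE 0.20). Igf1 was at 37.6, 27.6 and 23.4 in SPI and 17, 30.2 and 28.5 in SPI-E2, groups that overlap, with a difference of -0.23 (SE 0.30).

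Falls were smaller, and fewer genes were lower without SPI-E2 2 (71) or without SPI-E2 3 (66). Of 56 named genes that fell, 5 kept their call under every alternative tried: Gstm5, Gstm7, Inmt, Pln and Sult1a1. Glutathione transferases of the mu class led them. Gstm5 (chr2:203456122-203458917) was at 46.0, 45.3 and 41.3 FPKM in SPI and at 10.8, 6.27 and 3.36 in SPI-E2, and Gstm7 (chr2:203491366-203496812) at 23.4, 23.7 and 28.2 against 15, 1.79 and 1.95. The groups did not overlap, and the log2 differences were -2.65 (SE 0.27) and -2.35 (SE 0.52), with adjusted p of 0.00012 and 0.0072 from limma. The metallothioneins Mt1a and Mt2A, small metal-binding proteins, were also lower. Mt2A was at 299, 334 and 422 in SPI and at 287, 25.3 and 48.7 in SPI-E2, so that SPI-E2 1 was just under the lowest SPI pool and far above the other treated pools.

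In the list of glutathione, metallothionein and oxidative defense genes, 11 of 38 tested were higher and 10 lower. The higher ones included Txnrd1, Nqo1, Gclm and Srxn1, enzymes of thiol and quinone reduction, with log2 differences of 2.09 (SE 0.26), 1.82 (SE 0.23), 1.55 (SE 0.22) and 2.04 (SE 0.29). The lower ones included Gstm5, Gstm7, Gstm1 and Gstm3. The Gstm genes and the Mt genes are close copies, so their separate levels are uncertain at 36 bases per read.

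Some stromal and matrix genes were lower. Of 23 tested stromal fibroblast genes 0 were higher and 6 lower, with a median log2 difference of -0.80, and 10 were lower without SPI-E2 1. Thy1, a fibroblast surface protein, was at 18.2, 15.6 and 18.0 FPKM in SPI and at 12.7, 4.11 and 3.23 in SPI-E2. Dcn, the matrix proteoglycan decorin, was at 192, 276 and 193 in SPI and at 164, 100 and 70.5 in SPI-E2. The groups did not overlap for either gene, and SPI-E2 1 was the treated pool nearest to SPI for both.

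Of 47 genes for the extracellular matrix and its proteases 4 were higher and 8 lower, which became 4 and 14 when SPI-E2 1 was left out. The higher ones included Mmp7, Timp1, a metalloproteinase inhibitor, and Lamb3, a laminin chain of epithelial basement membrane. Timp1 was at 14.7, 11.9 and 13.8 FPKM in SPI and at 33.9, 97.2 and 87.9 in SPI-E2. Among the lower ones Postn, which encodes periostin, was at 83.8, 72.3 and 52.9 in SPI and 44.9, 14.5 and 19.4 in SPI-E2, a difference of -1.51 (SE 0.37). Col1a1, the main collagen chain, was at 207, 143 and 179 against 174, 92.4 and 61.1, with an adjusted p of 0.14 from limma.

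Of 32 blood vessel genes 0 were higher and 3 lower, namely Lyve1 of lymphatic vessels, Rgs5 of pericytes and the endothelial cadherin Cdh5. Without SPI-E2 1 these counts were 2 and 7. The endothelial marker Pecam1 stood at 32.8, 25.1 and 30.9 FPKM in SPI and 20.2, 26.9 and 24.6 in SPI-E2. Of 23 smooth muscle genes 1 was higher and 1 lower, or 1 and 4 without SPI-E2 1, where over all genes tested 8.55% were higher and 1.94% lower. The higher one was Gja1, the gap junction protein connexin 43, at 10.7, 10.5 and 8.58 in SPI and 15.7, 27.4 and 31.0 in SPI-E2. The lower one was Pln, the calcium pump inhibitor phospholamban, at 22.5, 23.7 and 26.1 against 14.3, 2.51 and 5.03. The log2 differences were 1.18 (SE 0.23) and -1.87 (SE 0.42).

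Signals between epithelium and stroma changed in both directions. Of 28 Wnt genes tested, 4 were higher and 6 lower. Ligands were among the higher ones, with Wnt7b at 1.35, 1.61 and 1.98 FPKM in SPI and 7.08, 16.2 and 10.2 in SPI-E2, and Wnt4 at 4.83, 4.37 and 4.0 against 10.8, 20.2 and 17.4. Secreted inhibitors and stem cell genes were among the lower ones. Wif1 (chr7:60330517-60400697), which binds and blocks Wnt proteins, was at 4.52, 3.17 and 3.18 in SPI and 0.484, 0.0527 and 0.0745 in SPI-E2. Lgr5, the receptor for R-spondins, was at 9.67, 8.47 and 9.85 in SPI and 7.14, 1.23 and 1.54 in SPI-E2, and the R-spondin Rspo3 differed by -1.41 (SE 0.27).

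Of 12 hedgehog pathway genes 0 were higher and 2 lower, the ligand Ihh and the target Gli1, and 5 were lower without SPI-E2 1. Gli1 was at 7.58, 9.75 and 9.06 FPKM in SPI and at 8.22, 0.499 and 0.397 in SPI-E2. SPI-E2 1 lay inside the SPI range, so the groups overlapped, and the difference of -1.86 (SE 0.54) was -2.75 without that pool. Ptch1, the hedgehog receptor and itself a target, was at 4.37, 6.84 and 4.99 in SPI and 4.31, 1.61 and 1.52 in SPI-E2, and its difference of -0.95 missed the fold threshold. Of 32 genes of TGF-beta, BMP and Notch signaling 2 were higher, Inhbb and the Notch target Hes1. The 3 lower ones were the inhibitors of differentiation Id2 and Id3 and Fst. The counts were 2 and 5 when SPI-E2 1 was left out. Over all genes tested, 8.55% were higher and 1.94% lower with every pool in. Id2 was at 49.6, 51.3 and 50.7 in SPI and at 37.6, 7.75 and 11 in SPI-E2.

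Some of the falls had the same order of SPI pools as the summed adipocyte markers. Of the 10 largest falls with no overlap, Rbp4, the plasma carrier of retinol made by liver and fat, was at 157, 75.3 and 15.6 FPKM in SPI and at 12.9, 6.60 and 15.1 in SPI-E2. Grifin, Cdo1 and Pla2g2a followed the same order, with Cdo1, an enzyme of cysteine breakdown, at 37.3, 25.6 and 5.6 in SPI and 4.73, 1.80 and 4.40 in SPI-E2. In each of these SPI 3 was within 2-fold of the highest treated pool, and SPI 1 and SPI 2 were far above. The summed adipocyte markers had the same order within SPI, and the part of fat around the uterus in these falls was not tested.

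The whole list of 21 tested adipocyte markers had 0 higher and 4 lower (1 and 7 without SPI-E2 1), with a median log2 difference of -1.29, and 0 had groups that did not overlap. Fabp4, a fatty acid carrier of adipocytes, was at 270, 182 and 43.2 FPKM in SPI and at 60.1, 15.9 and 64.3 in SPI-E2. Adipoq, the fat hormone adiponectin, went the other way, at 114, 79.1 and 16.0 in SPI and 77.6, 259 and 229 in SPI-E2. Its difference of 1.63 (SE 0.62) had an adjusted p of 0.067 from limma, and it was 2.18 with an adjusted p of 0.015 without SPI-E2 1. Of 17 tested liver markers 0 were higher and 1, Rbp4, was lower, and their summed FPKM was 2360, 116 and 94.1 in SPI and 54.9, 109 and 231 in SPI-E2. The median log2 difference of the liver list was -1.02, and it turned to 0.95 without SPI 1 and SPI-E2 1. With these 2 pools left out, the adipocyte list had 1 higher and 1 lower with a median of -0.90, and over all genes 1332 were higher and 399 lower.

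Of 5 tested red blood cell genes 0 were higher and 2 lower. Their summed FPKM was 945, 647 and 896 in SPI and 363, 352 and 166 in SPI-E2, so every treated pool was below every untreated pool. Hba-a2, an α-globin gene, was at 604, 418 and 635 in SPI and 233, 214 and 118 in SPI-E2, with a log2 difference of -1.58 (SE 0.46). Globin genes are close copies, and the amount of blood left in the tissue was not measured.

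**Figure D4:**
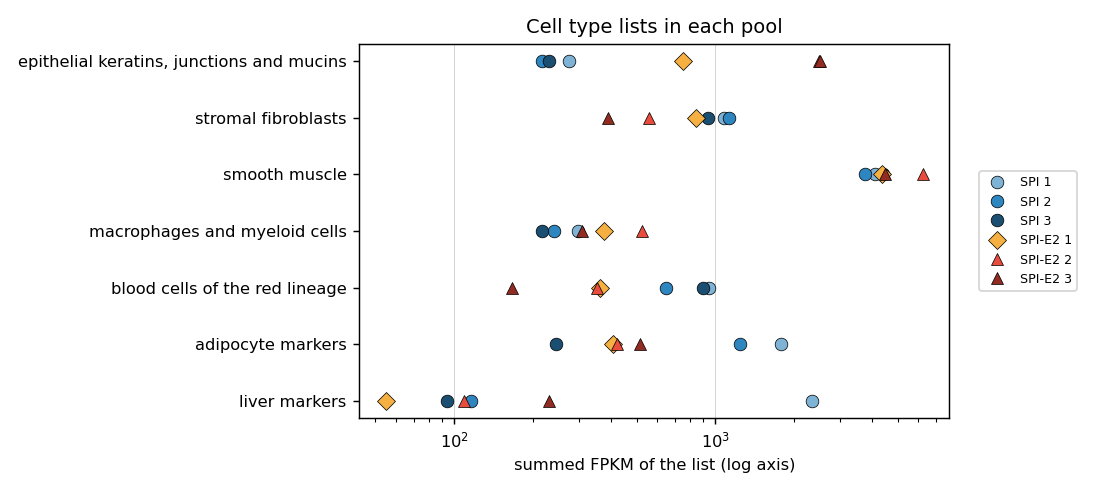
The horizontal axis is the summed FPKM of all genes of a cell type list in a pool, on a log axis, with a row for each list and the pools marked as circles (SPI), a diamond (SPI-E2 1) and triangles (SPI-E2 2 and SPI-E2 3). The epithelial list is at 218 to 275 in SPI and 753 to 2520 in SPI-E2, the liver list is at 2360 in SPI 1 alone, and the adipocyte list is at 1780 and 1250 in SPI 1 and SPI 2.

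A few calls went against the pattern of SPI-E2 1 and were larger with it than without it. Chrm2, the muscarinic receptor of smooth muscle, was at 4.29, 4.66 and 3.90 FPKM in SPI and at 0.798, 0.774 and 1.67 in SPI-E2, so that this pool changed as far as the others. Lefty2, a secreted antagonist of TGF-beta family signals, was at 1.02, 0.417 and 0.555 in SPI and 5.76, 4.24 and 1.7 in SPI-E2. Cd300a, a receptor of myeloid cells, was at 0.962, 0.556 and 2.68 against 7.67, 4.78 and 6.62. SPI-E2 1 was the highest treated pool for both Lefty2 and Cd300a. The genes that gained most when it was left out included C2cd4d, at 56.2, 39.4 and 51.9 in SPI and 41.1, 2.35 and 1.33 in SPI-E2, whose difference went from -2.85 (SE 0.80) to -4.15.

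On casein, E2 raised 769 of the same 9683 genes and lowered 617 (CAS-E2 against CAS). The genes higher on both diets numbered 564, which is 68.1% of those on soy and 73.3% of those on casein. The genes lower on both diets numbered 140, which is 74.5% of those on soy and 22.7% of those on casein, and 0 genes were called in opposite directions. Without SPI-E2 1 the genes lower on both diets numbered 297. The 2 comparisons share no library, although a single fit supplied the estimate of spread for both.

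**Figure D5:**
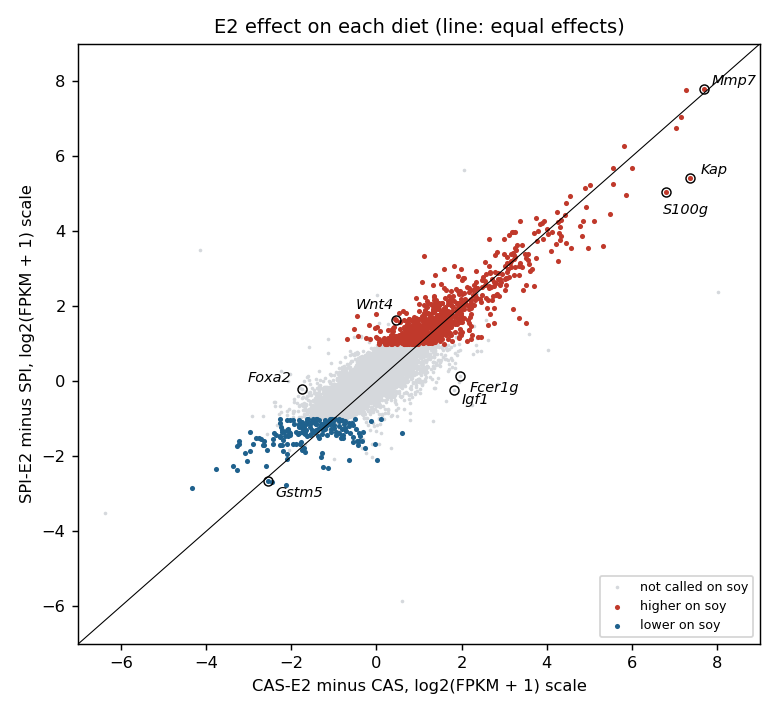
Each point is a tested gene, with the log2 difference CAS-E2 minus CAS on the horizontal axis and SPI-E2 minus SPI on the vertical axis, both on the log2(FPKM + 1) scale, genes higher on soy in red, lower on soy in blue and other genes in grey, with a line of equal effects. Mmp7 lies near the line (7.69 on casein and 7.81 on soy), while Foxa2, Igf1 and Fcer1g lie away from it with little change on soy.

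A test of the difference between the 2 E2 effects called 0 genes with limma at an adjusted p under 0.05, where the smallest adjusted p was 0.0761 and 1476 genes had an unadjusted p under 0.05. Of those 1476, 983 had the smaller effect on soy. That count includes SPI-E2 1, which lay between SPI and the other treated pools for most genes that differed without it. The matching share over all genes tested is not given, so the count is no measure of a weaker response on soy. Without SPI-E2 1 the same test called 155 genes, and with weights estimated for all 12 libraries it called 397. Foxa2, a transcription factor of uterine glands, stood at 3.99, 4.38 and 4.11 FPKM in SPI and 3.42, 3.93 and 3.18 in SPI-E2. Its log2 difference was -0.20 on soy and -1.76 on casein, and the difference of effects was 1.56 (SE 0.21, adjusted p = 0.076 from limma). Igf1 differed by -0.23 on soy and 1.83 on casein, and Fcer1g, a signaling chain of myeloid and mast cell receptors, by 0.14 on soy and 1.97 on casein. The adjusted p for the difference of effects was 0.14 and 0.11 from limma. Mean FPKM of Igf1 was 29.5 in SPI, 25.2 in SPI-E2, 12.7 in CAS and 49.2 in CAS-E2. For Foxa2 these means were 4.16, 3.51, 9.2 and 2.02, and for Fcer1g 32.4, 36.2, 21.8 and 84.6. The untreated means thus differed between diets too, so these differences of effects do not rest on the treated pools alone. Of the 26 myeloid genes, 5 were higher on soy and 21 on casein, which was not tested as a list, and Foxa2 and Fcer1g were chosen after their values were seen.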

How the data were processed

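Single reads of 36 bases were quality filtered by the authors. TopHat2 2.0.9, with Bowtie2 2.1.0, placed them on rn4, and Cufflinks 2.1.1 gave each transcript an FPKM and a coverage, which are the deposited values. CASAVA 1.7 is also named in the submitters' processing notes. No read counts were used here. FPKM were summed per gene symbol, and 87 of the tested symbols lie on more than 1 chromosome name. Mapped reads were recovered from coverage and FPKM.

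A linear model over all 12 libraries in 4 groups was fitted with limma 3.58.1 (R 4.3.3) on log2(FPKM + 1), with a trend of variance on level and p-values adjusted by Benjamini-Hochberg over 9683 genes. The spread is thus shared among groups. Cuffdiff, used in the study, needs the reads and was not repeated. Python 3.11.15 with pandas 2.3.3 and matplotlib 3.10.9 made the tables and figures. Data were simulated for this comparison with 9683 genes. Of 100 genes changed 2-fold, 71% had an adjusted p under 0.05 from limma, as had 99% of 100 changed 4-fold. All were drawn from genes with a mean log2(FPKM + 1) above 3. Among unchanged genes 6 had an adjusted p under 0.05. The fold threshold was not applied, and no simulated pool lay between the groups as SPI-E2 1 did. These shares are therefore not those of the calls above.

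The comparison and the 36 gene lists were chosen with earlier results of these data known, so list counts are descriptions without a test. Genes named are the 10 largest rises and falls with no overlap of groups and a transcript of at least 300 bases, the first 4 members of each list and up to 4 called members per direction with the smallest adjusted p, Esr1, Esr2 and Pgr, and the 5 called genes that lost and the 5 that gained most without SPI-E2 1. Genes with differing E2 effects between diets were to be named, but 0 passed. Where any other gene is named, the text says that it was chosen with its values in view. The exceptions are Pip, Reg3b, Padi1, Noxo1 and Gp2, named only for how they passed the filter. Alternatives were other pseudocounts, filters, scalings, fits and fold cutoffs, a replicate block and leaving out pools. A few genes chosen by this rule are not reported here.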

Additional observations from a re-analysis of the deposited data

How the results depend on the processing

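The number of lower genes, 188, moved more with the settings, relative to its size, than the number of higher genes, 828. Lower genes numbered 93 with only the 6 soy libraries in the fit, 334 with array weights (which gave SPI-E2 1 a weight of 0.208), 354 with a pseudocount of 0.1, 54 with a pseudocount of 5, 333 with quantile normalization, 110 with a filter at an FPKM of 5, 399 without SPI 1 and SPI-E2 1, 647 with no fold cutoff and 367 with the 2-fold cutoff on group means of FPKM. Leaving out each replicate in turn gave 66 to 444, with 66 without SPI-E2 3, 71 without SPI-E2 2, 112 without SPI 2 and 444 without SPI-E2 1. Higher genes numbered 418 with a pseudocount of 5, 1332 without SPI 1 and SPI-E2 1, 2101 with no fold cutoff and 598 to 1222 with each replicate left out. The difference of E2 effects between diets, 0 genes, became 397 with array weights, 1 with quantile normalization, 60 without SPI 1 and SPI-E2 1, and 0 to 155 with each replicate left out. The cause of these shifts was not tested, except that pseudocounts and fold cutoffs act on the fold by construction.

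The labels number replicates in both groups. Deviations from group means had correlations of -0.223 to -0.00877 for same-numbered pools and of -0.0844 to 0.221 for the other pairs. These gave no sign of pairing, but with 3 pools per group they cannot exclude a batch shared by number. A fit with the replicate block gave 831 higher, 208 lower and 0 with differing effects. Of 162 named genes that were called, 0 reversed under any of the 17 settings, and 70 of 106 higher but 5 of 56 lower kept their call under each setting that has them. Depth limits genes near the filter most, and FPKM carry no counting error.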

Other observations

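Retinoid and steroid enzymes, which the report does not describe, changed in a few members. Of 34 tested genes of steroid and retinoid metabolism 4 were higher and 2 lower, or 8 and 2 without SPI-E2 1, where over all genes tested 8.55% were higher. Dhrs9, a dehydrogenase that acts on retinol and steroids, stood at 2.67, 3.31 and 3.54 FPKM in SPI and at 26.1, 68.3 and 89.5 in SPI-E2. Crabp2, a retinoic acid carrier, and Hsd11b2, which inactivates corticosterone, had log2 differences of 2.76 (SE 0.40) and 2.91 (SE 0.54). Sult1a1, a sulfotransferase of phenols and estrogens, was at 12.2, 8.98 and 6.81 in SPI and at 4.11, 1.11 and 0.857 in SPI-E2, and fell by 1.89 on the log2 scale (SE 0.37). The other lower gene was Rbp4.

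Of 19 tested prostaglandin genes 3 were higher and 1 lower, or 4 and 2 without SPI-E2 1. Over all genes tested, 8.55% were higher and 1.94% lower with every pool in. Tbxas1, the thromboxane synthase, stood at 1.13, 0.900 and 0.759 FPKM in SPI and 2.89, 4.91 and 4.98 in SPI-E2, and Pla2g2a, a secreted phospholipase, at 29.4, 15.1 and 4.04 against 2.87, 1.46 and 2.32. Of 11 striated muscle markers 0 were higher and 2 lower, and 5 were lower without SPI-E2 1. Tnnc2, a troponin of fast skeletal muscle, was at 9.45, 17.7 and 23.0 in SPI and 15, 1.11 and 0.00 in SPI-E2, so its groups overlapped. Of 8 genes of ciliated, mesothelial and nerve cells 1 was higher, the nerve growth factor receptor Ngfr, at 1.34, 1.17 and 2.37 in SPI and 3.72, 20.8 and 8.23 in SPI-E2.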
